A study of Homo sapiens with 6 samples.

Results

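The AP-1 family was described here through the mRNA of 10 genes, JUN, JUNB, JUND, FOS, FOSB, FOSL1, FOSL2, ATF3, BATF3 and MAFF, taken by symbol from 25368 symbols in each of 2 expression tables. AP-1 is a dimer of basic leucine zipper (bZIP) proteins that binds the near-palindrome TGAGTCA. JUN proteins pair with each other or with FOS proteins, FOS proteins need a partner, and ATF3 and BATF3 also pair with JUN. The kinase JNK phosphorylates the transactivation domain of JUN, and AP-1 is known in fibroblasts for the response to serum, cytokines and stress.

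The cells were MRC5, human embryonic lung fibroblasts immortalised with hTERT, so every library came from 1 line. In the first table, MRC5 had been infected for 2 h with adenovirus and cultured for 3 days, and the virus carried an empty vector (control), FLAG-tagged JUN (JUN WT) or JUN whose serines phosphorylated by JNK were alanine (JUN AA). In the second table, untreated MRC5 stood beside iCAFs, which are MRC5 grown for 7 days in conditioned medium of MDA-MB-231, a triple-negative breast cancer line, and beside iCAFs+JNKi, which also received the covalent JNK inhibitor JNK-IN-8 at 1 µM for 48 h. The protocol pairs the inhibitor with DMSO as vehicle, but the label of the iCAFs library does not say whether DMSO was added. The conditioned medium had been collected without serum while MRC5 are kept with serum, so cancer cell factors and serum cannot be told apart between iCAFs and MRC5.

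Each condition had 1 library, so no difference has a replicate check and no error, p-value or test is given. Values are FPKM, fragment numbers made relative to the length of the exons and to the size of the library, as deposited, and the read number behind them is unknown. Changes are differences of log2(FPKM + 1), which understate the change of low genes, and 2-fold means a difference of at least 1. They were compared only within a table, with all genes at a mean of at least 1 FPKM as background. That was 10311 genes in the JUN table and 11780 in the JNKi table. In such bulk libraries, fewer cells of a type and less RNA per cell cannot be told apart.

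All 10 fibroblast markers reached 1 FPKM in all 6 libraries, with sums from 4025 to 6282 FPKM. Of 10 epithelial markers at most 1 reached 1 FPKM in a library, with sums from 0.680 to 2.82 FPKM and CDH1 listed at 0 in all 6. Of 4 endothelial markers none did, with sums from 0.129 to 0.628 FPKM and CDH5 listed at 0 throughout. Of 5 leukocyte markers only CD68, a lysosomal protein, reached 1 FPKM, and PTPRC stayed at or near 0. CD68 lay between 31.1 and 48.6 FPKM in 5 libraries and at 85.7 FPKM in JUN WT. The part of CD68-expressing cells in the JUN WT values was not tested. The fibroblast markers also differed between conditions. Against control, 0 of the 10 were at least 2-fold higher and 3 lower with JUN WT (median -0.49). With JUN AA 1 was higher and 2 lower (median -0.18). Of all background genes, 6.92% were higher and 3.39% lower with JUN WT (median 0.15). With JUN AA these shares were 5.29% and 3.77% (median -0.015). PDGFRB, a growth factor receptor, was at 60.4 FPKM in control, 13.8 with JUN WT and 15.8 with JUN AA, and LUM, a matrix proteoglycan, at 94.5, 24.9 and 240.1 FPKM. In iCAFs 0 were at least 2-fold higher and 2 lower than in MRC5 (median -0.32), beside 1.94% and 1.71% of background genes. With JNKi 5 were higher and 0 lower than in iCAFs, beside 2.25% and 1.97%. Of the 10, 9 were above iCAFs, with a median of 0.97. The background medians were -0.061 in iCAFs and -0.099 with JNKi. COL3A1, a fibrillar collagen, was at 46.4 FPKM in iCAFs and 296 with JNKi, while VIM, an intermediate filament protein, was at 1655 and 1209 FPKM. The part of these markers in the results was not tested.

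FOSL1 (FRA-1), a FOS protein without the strong transactivation domain of FOS, was the most abundant member in untreated MRC5 at 103 FPKM. JUN followed at 57.1, JUND at 38.2, MAFF at 18.8, JUNB at 17.9 and FOSL2 (FRA-2) at 10.6 FPKM. ATF3 and BATF3 were low, at 1.26 and 1.20 FPKM. FOS, the classical immediate-early partner of JUN, was at 0.0485 FPKM and FOSB at 0.237 FPKM. Within the JUN and FOS families, the mRNA other than JUN was thus mainly FOSL1, JUND and JUNB. Other bZIP factors, such as ATF4 at 119 FPKM in MRC5, are not counted in this. With the empty virus the order was JUND at 124, FOSL1 at 56.9, JUNB at 56.1, JUN at 25.5 and MAFF at 18.2 FPKM, again with FOS and FOSB under 1 FPKM. With 1 library per condition, none of these neighbours in either order can be shown to differ. Of the 10 members, 8 passed the filter on low values in each table, with every library at or above 1 FPKM, and FOS and FOSB did not pass.

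**Figure D1:**
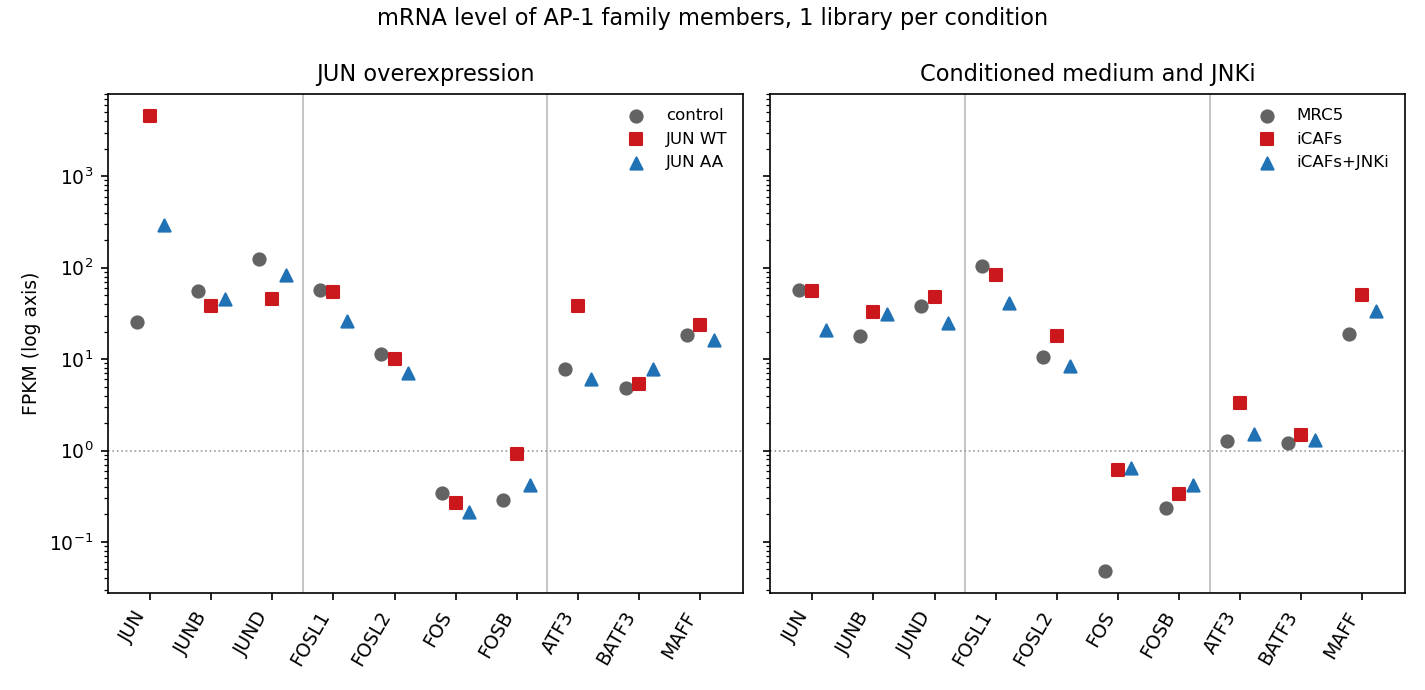
FPKM of the 10 members (log axis) in the 3 libraries of the JUN overexpression table (left) and the 3 libraries of the JNKi table (right), 1 point per library; the dotted line marks 1 FPKM. FOS and FOSB lie under 1 FPKM in all 6 libraries, and ATF3 stands at 38.2 FPKM in JUN WT against 7.87 in control and 6.05 in JUN AA.

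On hg19, with GENCODE gene models, JUN lies at chr1:59242517-59249720 on the minus strand, FOSL1 at chr11:65659520-65668044 on the minus strand, JUND at chr19:18390504-18392432 on the minus strand and ATF3 at chr1:212738676-212794119 on the plus strand. These shared no exon bases with another gene. JUNB shared up to 259 exon bases with HOOK2 and MAFF up to 326 with PLA2G6, in both cases a gene on the opposite strand. If reads were counted without regard to strand, the FPKM of JUNB and MAFF depend on how shared reads were divided. The strand setting is not given.

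Promoters of JUN and ATF3 are textbook sites of AP-1 and ATF dimers. Promoter windows of 300 bases, 250 before to 50 after the start, were found in RefSeq (GRCh38.p14) for 8 of the 10 members, as 10 windows because ATF3 and MAFF each had 2. They were searched on both strands for the AP-1 site TGAGTCA, whose complement reads TGACTCA, for the CRE TGACGTCA, for TGACATCA, the form known from the JUN promoter, and for TTACCTCA, added after the JUN window had been read. None of these strings contains another. FOSL1 and BATF3 had no window and were not searched. The stretches printed here are those around a match in members that changed at least 2-fold in some comparison, read 5′ to 3′ on the gene's strand with the motif in capitals. They lie 97 to 30 bases before the start of JUN (chr1:58784077-58784144), 216 to 149 before the same start (chr1:58784196-58784263), 153 to 86 before the upstream start of ATF3 (chr1:212565254-212565321), 230 to 163 before that of JUND (chr19:18281785-18281852) and 84 to 17 before 1 start of MAFF (chr22:38201910-38201977).
JUN, proximal: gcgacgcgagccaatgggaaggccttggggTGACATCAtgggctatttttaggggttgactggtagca
JUN, distal: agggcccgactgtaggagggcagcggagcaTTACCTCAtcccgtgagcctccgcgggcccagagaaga
ATF3: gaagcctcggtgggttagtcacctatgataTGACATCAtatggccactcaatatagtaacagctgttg
JUND: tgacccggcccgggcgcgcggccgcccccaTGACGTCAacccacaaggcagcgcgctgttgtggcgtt
MAFF: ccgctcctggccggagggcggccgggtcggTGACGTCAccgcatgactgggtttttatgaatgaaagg

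The window of FOSL2 held TGACTCA from 5 bases after the start, and those of JUNB, FOS and FOSB held none of the strings. Of all 35116 windows, 4.95% held TGAGTCA on either strand, 1.85% TGACGTCA, 2.61% TGACATCA and 0.715% TTACCTCA. JUN and ATF3 were the members with TGACATCA, and JUND and MAFF those with TGACGTCA. A match is a description of the letters and not a measured binding site.

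The virus libraries ask what wild-type JUN does to its own family and whether this needs the serines phosphorylated by JNK. JUN was at 25.5 FPKM in control, 4543 with JUN WT and 291 with JUN AA, a 178-fold and an 11.4-fold higher value than in control. JUN WT thus carried 15.6 times the JUN mRNA of JUN AA, so dose and the alanine substitutions cannot be told apart in any contrast of JUN WT with JUN AA. FPKM do not separate introduced from endogenous JUN, so the response of the JUN gene itself cannot be read from these libraries.

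Against control, 2 of the 10 members were at least 2-fold higher in JUN WT (JUN and ATF3), where 6.92% of all filtered genes were, and 1 was at least 2-fold lower (JUND), where 3.39% were. In JUN AA, 1 was higher (JUN) beside 5.29% of all filtered genes, and 1 was lower (FOSL1) beside 3.77%. JUN WT and JUN AA share the control library. The median change of the 10 members was 0.027 in JUN WT, beside 0.15 over all filtered genes, and -0.24 in JUN AA, beside -0.015. Apart from JUN, which the virus supplied, the members did not all lie on one side: of the 10, JUN included, 5 were higher and 5 lower with JUN WT, and 3 were higher and 7 lower with JUN AA.

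ATF3, a stress-induced bZIP factor that pairs with JUN, stood apart in JUN WT. It was at 7.87 FPKM in control, 38.2 with JUN WT and 6.05 with JUN AA. JUN WT was the high library, 4.85-fold over control (log2 change 2.14), and JUN AA lay slightly under control at -0.33. Of all filtered genes, 0.291% had a larger rise than ATF3 in JUN WT. Set directly against JUN AA, JUN WT held 6.30 times the ATF3 mRNA (log2 change 2.47).

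The JUN paralogues were lower in both JUN libraries. JUND, present in most resting cells, was at 124 FPKM in control, 45.0 with JUN WT and 83.8 with JUN AA, so that JUN WT was 2.75-fold lower (log2 change -1.44) and JUN AA lay between (-0.56). Of all filtered genes, 1.13% had a larger fall than JUND in JUN WT and 13.1% in JUN AA. JUNB was at 56.1 FPKM in control, 38.2 with JUN WT and 45.1 with JUN AA, log2 changes of -0.54 and -0.31. Larger falls than that of JUNB were seen in 11.3% of filtered genes with JUN WT and 26.5% with JUN AA. Summed, JUNB and JUND came to 180 FPKM in control, 83.3 with JUN WT and 129 with JUN AA. JUND is a gene of extreme base composition, with 69.9% GC in its exons against a median of 49.6% over filtered genes, and JUNB has 64.9%. With the trend of change over GC content removed, the log2 change of JUND in JUN WT was -1.10 and that of JUNB -0.20.

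The FOS proteins showed a different order. FOSL1 was at 56.9 FPKM in control, 54.4 with JUN WT and 26.2 with JUN AA. It was thus near control with JUN WT (log2 change -0.07, a direction that turned to 0.08 with the GC trend removed) and 2.17-fold lower with JUN AA (-1.09). Its fall in JUN AA was exceeded by 2.94% of filtered genes, and it ranged from -1.39 to -0.88 over the alternatives. FOSL2 was at 11.3, 10.1 and 6.97 FPKM, so JUN AA was again the lowest, at a log2 change of -0.62. FOS was at 0.347, 0.270 and 0.211 FPKM and FOSB at 0.285, 0.917 and 0.424 FPKM, all under 1 FPKM. Both thus stayed under 1 FPKM with JUN in large excess. The FOS family summed to 68.8 FPKM in control, 65.6 with JUN WT and 33.8 with JUN AA.

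BATF3, a bZIP protein without a transactivation domain of its own, was at 4.86 FPKM in control, 5.36 with JUN WT and 7.79 with JUN AA, where its log2 change was 0.58. It was the member other than JUN and FOSB with a higher value in JUN AA than in control. MAFF, a small MAF protein that also lacks a transactivation domain, was at 18.2, 23.6 and 16.1 FPKM, log2 changes of 0.35 and -0.17. Neither reached 2-fold, and the signs of BATF3 in JUN WT and of MAFF in JUN AA were not kept in every alternative.

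Between JUN WT and JUN AA, 3 of the 10 members were at least 2-fold higher in JUN WT (JUN, ATF3 and FOSL1), where 6.65% of filtered genes were, and 0 were lower, where 5.61% were. The median change was 0.45, beside 0.18 over all filtered genes. JUN was supplied by the virus, and the 7 other members that passed the filter had a median of 0.48. FOSL1 passed the limit narrowly, at 1.02, with a range of 0.84 to 1.31 over the alternatives. JUND was the largest of the lower values, at -0.88. JUNB at -0.23 and FOS at 0.07 kept no direction over the alternatives.

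**Figure D2:**
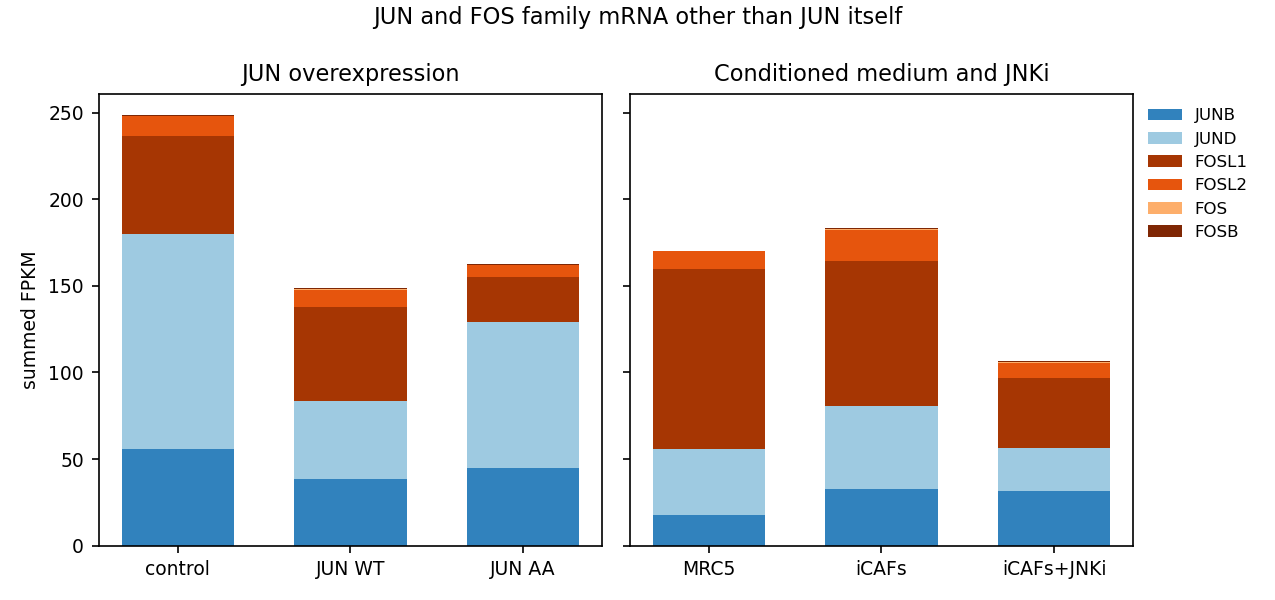
Summed FPKM of the JUN and FOS family members other than JUN in each library, 1 bar per library, stacked by gene, for the JUN overexpression table (left) and the JNKi table (right). JUNB and JUND shrink from 180 FPKM in control to 83.3 in JUN WT, and FOSL1 makes up most of the FOS family in all 6 bars.

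The balance of partner mRNAs differed between these libraries. FOS family mRNA made up 25.1% of the summed JUN and FOS family FPKM in control, 1.40% with JUN WT and 7.45% with JUN AA. With JUN left out, the FOS share was 27.7% in control, 44.1% with JUN WT and 20.8% with JUN AA. The higher share in JUN WT came from lower JUNB and JUND and not from more FOS family mRNA. JUN itself rose from 12.4% of the JUN family in control to 98.2% in JUN WT and 69.3% in JUN AA. FOSL1 made up 82.7%, 82.8% and 77.5% of the FOS family.

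The JNKi table asks what the family does when fibroblasts meet cancer cell medium and when JNK is then blocked. In iCAFs, 1 of the 10 members was at least 2-fold higher than in MRC5 (MAFF), where 1.94% of filtered genes were, and 0 were lower, where 1.71% were. Of the 10, 8 were higher, with a median change of 0.47 beside -0.061 over all filtered genes, and JUN and FOSL1 were not among them. The 8 include FOS and FOSB, under 1 FPKM, and BATF3 at only 0.17. Over the members that passed the filter the median was 0.51. With JNKi, 0 members were at least 2-fold higher than in iCAFs, where 2.25% of filtered genes were, and 2 were lower (JUN and FOSL1), where 1.97% were. The median change was then -0.66, beside -0.099 over all filtered genes. Of the 10, 8 were lower and 2 (FOS and FOSB, under 1 FPKM) higher with JNKi than in iCAFs, and JUNB at -0.06 did not keep its direction when changes were rescaled or centred. The iCAFs library enters both contrasts.

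JUN was at 57.1 FPKM in MRC5, 55.3 in iCAFs and 21.1 with JNKi. Its mRNA was thus level between MRC5 and iCAFs (log2 change -0.05, a direction not kept over the alternatives) and 2.63-fold lower with the inhibitor (-1.35, between -1.39 and -1.22 over the alternatives). Of all filtered genes, 0.832% had a larger fall than JUN with JNKi. In rank among the 10 members, JUN went from 2 in MRC5 and iCAFs to 5 in iCAFs+JNKi.

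JUND was at 38.2 FPKM in MRC5, 48.0 in iCAFs and 24.8 with JNKi. It was 1.94-fold lower with JNKi than in iCAFs, just short of the limit at -0.93. JUNB was at 17.9 FPKM in MRC5, 32.6 in iCAFs and 31.3 with JNKi. Its value in iCAFs, 1.82-fold over MRC5 with 2.70% of filtered genes rising more, was nearly the same with the inhibitor, at a log2 difference of 0.77 from MRC5. JUN therefore fell from 50.5% of JUN family FPKM in MRC5 and 40.7% in iCAFs to 27.3% in iCAFs+JNKi.

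FOSL1 was at 103 FPKM in MRC5, 84.0 in iCAFs and 41.0 with JNKi. It was the most abundant member in all 3 libraries, and its level was lower in each step (log2 changes of -0.30 and -1.02). The JNKi step was exceeded by 1.87% of filtered genes and ranged from -1.03 to -0.89 over the alternatives, so its place past the limit was not kept in all of them. FOSL2 was at 10.6, 17.7 and 8.42 FPKM, higher in iCAFs at 0.70 and lower with JNKi at -0.99, a value that fell short of the limit of 1. FOS was at 0.0485, 0.611 and 0.648 FPKM and FOSB at 0.237, 0.333 and 0.417 FPKM. FOS was thus lowest in MRC5, and neither gene reached 1 FPKM in any of these libraries. The FOS family summed to 114 FPKM in MRC5, 103 in iCAFs and 50.4 with JNKi.

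The share of FOS family mRNA was 50.2% of JUN and FOS family FPKM in MRC5, 43.0% in iCAFs and 39.5% with JNKi. Within the FOS family, FOSL1 went from 90.5% in MRC5 to 81.8% in iCAFs and 81.2% with JNKi, and FOSL2 from 9.24% to 17.3% and 16.7%. The ratio of FOSL1 to FOSL2 was 9.80 in MRC5, 4.73 in iCAFs and 4.87 with JNKi. The shift toward FOSL2 was therefore seen in both libraries with conditioned medium, while the total of both mRNAs was lower with JNKi.

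On the log2(FPKM + 1) scale, MAFF had the largest rise among the members in iCAFs, while with a pseudocount of 0.1 FOS, under 1 FPKM throughout, was at 2.26 and MAFF at 1.40. It was at 18.8 FPKM in MRC5, 49.9 in iCAFs and 33.9 with JNKi, which is 2.65-fold higher in iCAFs (log2 change 1.36, between 1.36 and 1.45 over the alternatives) and intermediate with JNKi (-0.54 from iCAFs, 0.81 from MRC5). Of all filtered genes, 1.21% had a larger rise than MAFF in iCAFs. ATF3 was at 1.26, 3.31 and 1.53 FPKM, 2.62-fold higher in iCAFs as a ratio of FPKM but 0.93 on the log2(FPKM + 1) scale, and 2.16-fold lower with JNKi (-0.77). ATF3 thus returned close to its MRC5 level with the inhibitor, at a log2 difference of 0.16. BATF3 was at 1.20, 1.48 and 1.31 FPKM and showed little difference between the libraries.

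Against MRC5, the iCAFs+JNKi library had 0 members at least 2-fold higher, beside 3.28% of filtered genes, and 2 lower (JUN and FOSL1), beside 3.53%. The median change was 0.12, beside -0.16 over all filtered genes. JUN and FOSL1 were thus below untreated MRC5 at -1.40 and -1.32, ATF3 and BATF3 close to it, and MAFF and JUNB above it. The members did not return as a group to the level of MRC5.

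**Figure D3:**
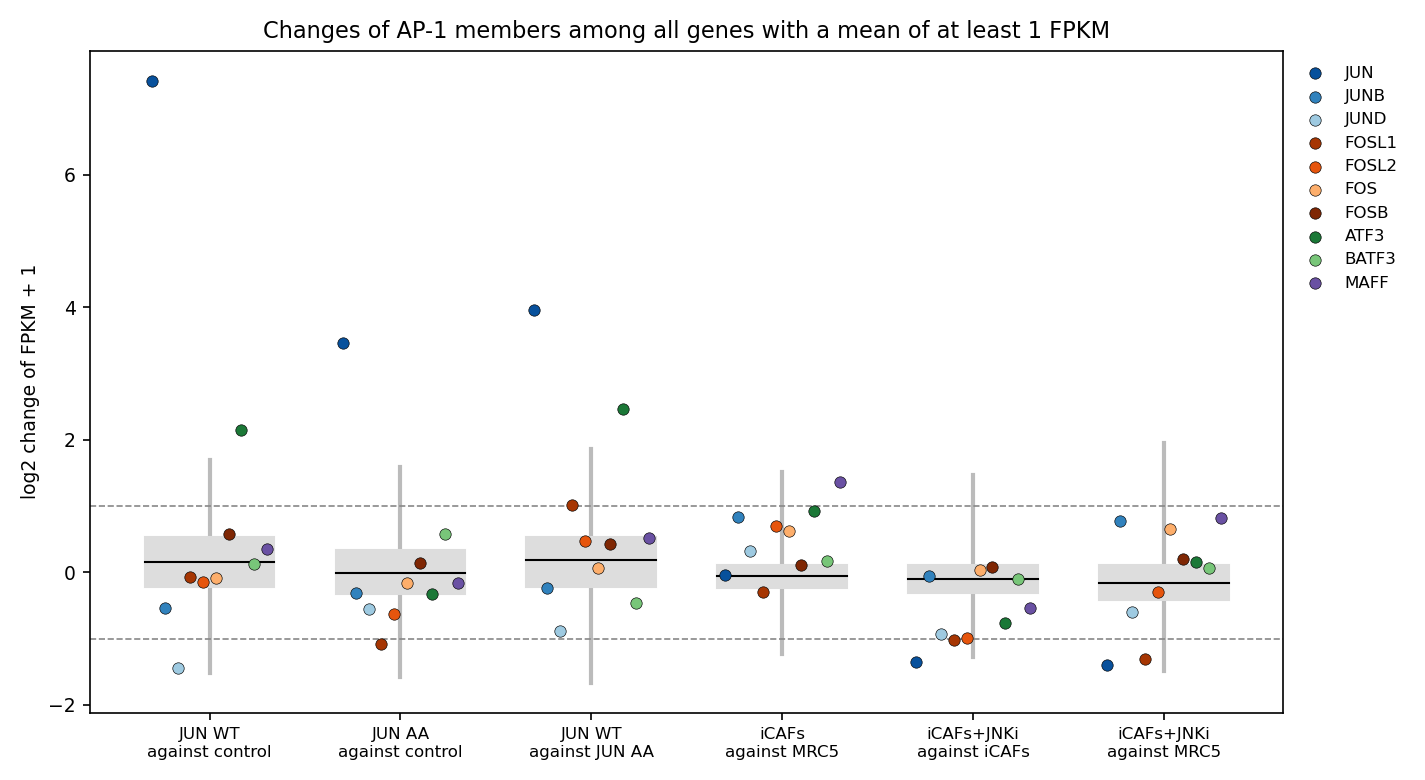
Log2 change of FPKM + 1 for each of the 10 members (coloured points) in 6 comparisons, over the spread of all genes at a mean of at least 1 FPKM (box, middle 50%; line in the box, median; grey line, 1st to 99th percentile); dashed lines mark 2-fold. ATF3 at 2.14 stands out beside JUN in JUN WT, and with JNKi JUN at -1.35, FOSL1 at -1.02 and FOSL2 at -0.99 lie lowest.

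Genes known as AP-1 targets, a list of 32 symbols of which 31 were in the tables, include proteases, cytokines and matrix genes. This list and the gene lists that follow were chosen with earlier results of these data known. Their counts are therefore descriptions and no independent support. Of 24 that passed the filter in the JUN table, 11 were at least 2-fold higher and 1 lower in JUN WT than in control, beside 6.92% and 3.39% of all filtered genes, with a median change of 0.87. In JUN AA 4 were higher and 2 lower, beside 5.29% and 3.77%, with a median of -0.12. After rescaling, 4 were lower in JUN AA and the median was -0.40, and after centring 1 was lower. SERPINB2, an inhibitor of plasminogen activators, was at 21.6 FPKM in control, 374 with JUN WT and 226 with JUN AA, and MMP1, interstitial collagenase, was at 31.1, 414 and 155 FPKM. Both were thus high in the 2 JUN libraries, unlike ATF3. PLAU, the urokinase protease, was lower in both, at 350, 150 and 125 FPKM. MMP3, stromelysin, was high in JUN WT alone, at 43.4 FPKM against 3.21 in JUN AA, the largest difference of the list between the JUN libraries. In that contrast 13 of the 24 were higher in JUN WT and 0 lower, beside 6.65% and 5.61% of all filtered genes. The median was 1.06, beside 0.18, and 16 were higher after rescaling and 9 after centring. The filter uses the mean of 3 libraries, so a gene high in 1 of them can pass through that library. CXCL8, at 0, 4.46 and 0.103 FPKM in control, JUN WT and JUN AA, and IL6, at 0.805, 2.43 and 0.251, passed through JUN WT.

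In iCAFs, 13 of the 26 targets that passed the filter were at least 2-fold higher than in MRC5 and 0 lower, beside 1.94% and 1.71% of all filtered genes, with a median of 0.98. With JNKi, 11 were lower than in iCAFs and 0 higher, beside 1.97% and 2.25%, with a median of -0.93. Against MRC5, 9 targets were at least 2-fold higher with JNKi and 4 lower, beside 3.28% and 3.53%. Among the falls with JNKi, LIF, a cytokine of the IL-6 family, went from 104 to 4.06 FPKM and IL1A from 12.5 to 0.761 FPKM. IL1A, at 0 FPKM in MRC5, passed the filter only through its value in iCAFs. In MRC5, iCAFs and iCAFs+JNKi, IL1B was at 0, 194 and 25.9 FPKM and CXCL8 at 0.153, 548 and 240. IL6, at 0.627, 129 and 16.4, and PTGS2, at 0.274, 41.5 and 6.61, were chosen after their values were seen. These also passed only through the libraries with conditioned medium. Such genes are among the 13 higher in iCAFs and the 11 lower with JNKi, so these counts depend partly on the filter. EZR, which links actin to the membrane, was at 35.6 FPKM in MRC5, 20.2 in iCAFs and 9.28 with JNKi. In iCAFs JUN was at 55.3 FPKM, against 57.1 in MRC5, and FOSL1 at 84.0, against 103. Of the 10 members, 8 were higher in iCAFs, among them MAFF at 1.36, ATF3 at 0.93 and JUNB at 0.83. The 8 also include FOS and FOSB, under 1 FPKM, and BATF3 at 0.17. These are mRNA levels and do not show the phosphorylation of JUN. The part of the members in the values of the targets was not tested.

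Of 37 other bZIP factors, 28 passed the filter in the JUN table and 27 in the JNKi table. JUN WT held 1 at least 2-fold over control and 3 under it, and JUN AA held 1 over and 1 under, with medians of -0.04 and -0.20. Of all filtered genes, 6.92% were over and 3.39% under with JUN WT, and 5.29% and 3.77% with JUN AA, so that 1 of 28 is no more than the share of all genes. BATF2, a relative of BATF3, was at 2.01 FPKM in control, 11.7 with JUN WT and 0.171 with JUN AA, high and low in the same libraries as ATF3. CEBPD and CEBPB, C/EBP factors of the inflammatory response, were lower in JUN WT, CEBPD at 84.0 FPKM in control and 21.7 in JUN WT and CEBPB at 149 and 66.2 FPKM. CEBPD was the gene of this list to pass 2-fold in iCAFs, from 11.8 FPKM in MRC5 to 43.8, and it stayed at 48.7 FPKM with JNKi, as JUNB did among the members. With JNKi 0 of the 27 passed 2-fold in either direction against iCAFs, with medians of 0.10 in iCAFs and -0.06 with JNKi. The shares of all filtered genes were 1.94% higher and 1.71% lower in iCAFs, and 2.25% and 1.97% with JNKi. For 27 genes, counts of 0 or 1 are near these shares.

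Of 29 immediate-early genes outside the bZIP class, which serum and cytokines switch on together with FOS, 22 passed the filter in the JUN table and 24 in the JNKi table. JUN WT held 2 at a level at least 2-fold over control and 2 at least 2-fold under it, and JUN AA held 0 over and 6 under, with medians of 0.26 and -0.47. The shares of all filtered genes were 6.92% over and 3.39% under with JUN WT, with a median of 0.15, and 5.29% and 3.77% with JUN AA, with a median of -0.015. EGR1, a zinc finger factor, was at 2.74 FPKM in control, 6.50 with JUN WT and 0.735 with JUN AA. CTGF, a matricellular protein, was lower in both, at 93.3, 34.8 and 34.3 FPKM. In iCAFs 5 were higher and 0 lower, beside 1.94% and 1.71% of all filtered genes. With JNKi 0 were higher and 4 lower than in iCAFs, beside 2.25% and 1.97%. The medians were 0.49 and -0.31, beside -0.061 and -0.099 over all filtered genes. After rescaling or centring, 2 were lower with JNKi, with medians of -0.19 and -0.21. IER3 was at 4.97 FPKM in MRC5, 32.5 in iCAFs and 7.01 with JNKi, and the nuclear receptor NR4A2 at 3.53, 15.5 and 6.17 FPKM. Both were highest in iCAFs and nearer to MRC5 with the inhibitor, the order shown by ATF3.

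The kinases upstream of AP-1 include JNK, ERK and p38 with their activators. Of 26 genes of the MAP kinase cascades, 22 passed the filter in the JUN table, and 4 were at least 2-fold higher and 1 lower in JUN WT, with a median of 0.25, beside 6.92%, 3.39% and a median of 0.15 over all filtered genes. Centred on that median, 2 were higher. MAP2K3, which activates p38, was at 40.1 FPKM in control and 92.7 in JUN WT, MAP2K4, which phosphorylates JNK, was at 0.810 and 3.13 FPKM, and MAPK11, p38 beta, at 19.2 and 8.69 FPKM. In JUN AA 0 passed 2-fold (median 0.05), beside 5.29% higher and 3.77% lower over all filtered genes (median -0.015). Of 24 that passed the filter beside MRC5 and iCAFs, 0 passed 2-fold in either direction in iCAFs (median -0.13) or with JNKi (median -0.19). All filtered genes had 1.94% higher and 1.71% lower in iCAFs, and 2.25% and 1.97% with JNKi. For 24 genes, 0 is near these shares.

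Of 18 symbols of AP-1 cofactors and regulators, 17 were in the tables, 16 passed the filter in the JUN table and 17 in the JNKi table. COPS5 (JAB1), which binds JUN, was at 9.23 FPKM in control, 22.3 with JUN WT and 21.6 with JUN AA. NACA, the alpha chain of the nascent polypeptide complex, was at 204 FPKM in control and 480 in JUN AA. These were the cofactors past 2-fold: 1 higher in JUN WT and 2 in JUN AA, with 0 lower in either (medians 0.14 and -0.02). All filtered genes had 6.92% and 5.29% higher and medians of 0.15 and -0.015, close to those of the cofactors, and after rescaling 0 cofactors were higher with JUN AA. In iCAFs and with JNKi 0 of 17 passed 2-fold, with medians of 0.05 and -0.17. The shares of all filtered genes were 1.94% higher and 1.71% lower in iCAFs, and 2.25% and 1.97% with JNKi. For 17 genes, 0 is near these shares.

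**Figure D4:**
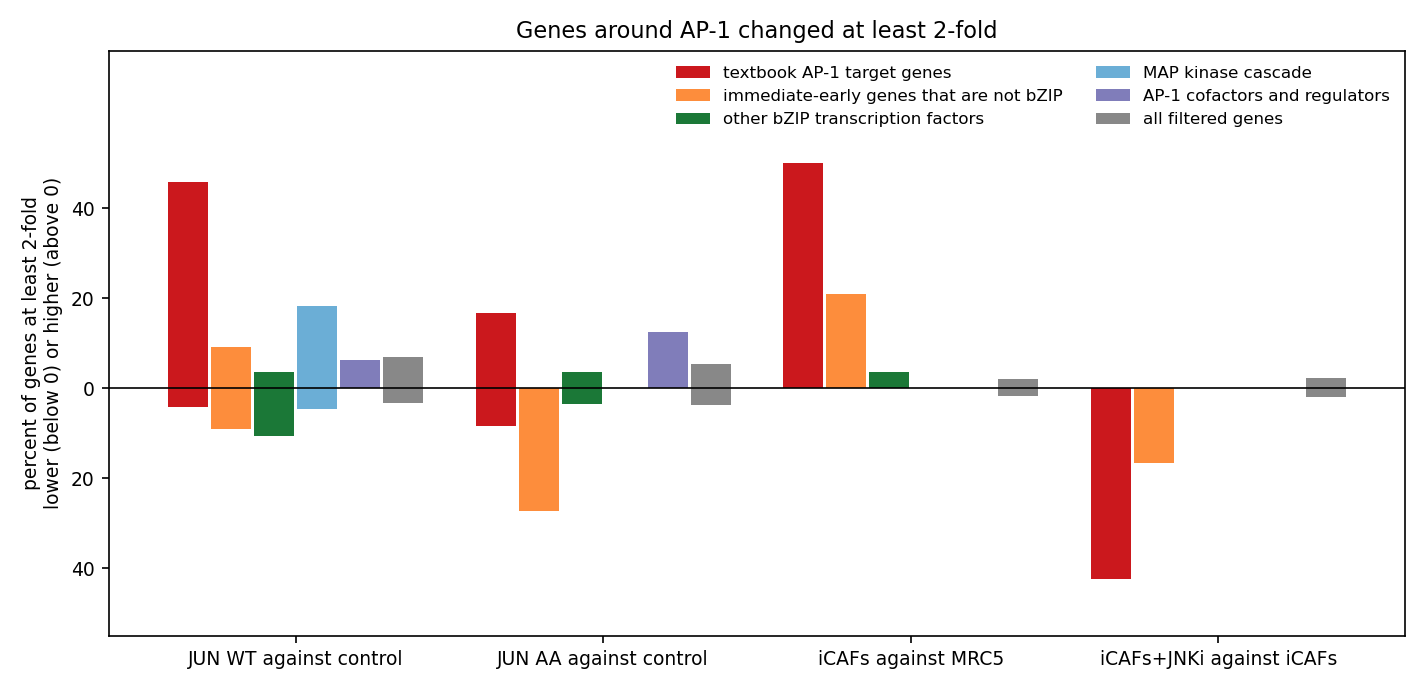
Percent of the genes of each list that were at least 2-fold higher (bars above 0) or lower (bars below 0) in 4 comparisons, beside all genes at a mean of at least 1 FPKM (grey); JUN WT and JUN AA share the control library and the iCAFs library enters both contrasts of the JNKi table. The bars of AP-1 targets reach furthest up in iCAFs (13 of 26 genes) and furthest down with JNKi (11 of 26). The grey bars stand at 1.94% up and 1.71% down in iCAFs, and at 2.25% and 1.97% with JNKi. No gene of the MAP kinase list passed 2-fold in these last 2 comparisons, which for 24 genes is near the grey bars.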

How the data were processed

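RNA was prepared with TRIzol and the NEBNext Ultra kit, and the authors aligned to hg19 (HISAT2 2.1.0) and used StringTie 2.1.1 for the FPKM per gene they deposited, per the labels, the methods and the submitters' processing notes. The annotation, strand setting and read number are not given in the sources used here. FPKM is scaled by exon length and mapped fragments, and depth and precision are unknown.

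Within each table, differences of log2(FPKM + 1) were taken (Python 3.11.15, numpy 2.4.6, pandas 2.3.3). The background held genes at a mean of at least 1 FPKM over 3 libraries. With 1 library per condition no test was made, and the computation was tested on simulated data. All 10 members are given, and from each list the counts and, by value, genes among the 2 largest rises and falls of at least 2-fold. The members and lists were chosen with earlier results of these data known. Alternatives were a pseudocount of 0.1 FPKM, rescaling to the same sum, centring on the median gene and removal of the GC trend in 20 bins. GC content and overlaps come from GENCODE on GRCh37, and GC was known for 91.1% and 90.4% of filtered genes. Promoters come from RefSeq. Figures were drawn with matplotlib 3.10.9. Samples carried the labels' groups, and all columns were matched to a library by name. Cell type lists were fibroblast, epithelial, leukocyte and endothelial markers.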

Additional observations from a re-analysis of the deposited data

How the results depend on the processing

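No member change past 2-fold turned direction under another pseudocount, scaling, centring or GC correction. The median of the members turned from 0.027 to -0.12 in JUN WT against control after centring, and from 0.12 to -0.11 in iCAFs+JNKi against MRC5 over members at a mean of at least 1 FPKM. Past 2-fold in each of these were JUN in every comparison but iCAFs against MRC5, ATF3 and JUND in JUN WT against control, ATF3 in JUN WT against JUN AA, MAFF in iCAFs and FOSL1 in iCAFs+JNKi against MRC5. With a pseudocount of 0.1, 3 members were at least 2-fold higher in iCAFs than in MRC5, 4 were lower with JNKi than in iCAFs, and 1 was higher with JNKi than in MRC5. With JNKi against iCAFs, 1 member was lower after rescaling, 1 after centring and 1 with the GC trend removed. With the GC trend removed, 0 members were lower in JUN AA than in control and 1 was higher in iCAFs+JNKi than in MRC5. Centring gave 1 lower member in JUN WT against JUN AA, and rescaling moved the median of JUN AA against control to -0.53. These are counts of 10 genes near the limit of 1, and the cause was not tested. Left without JUN, the FOS family share was 67.1% in MRC5, 56.0% in iCAFs, 47.3% in iCAFs+JNKi, 44.1% in JUN WT and 20.8% in JUN AA.

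Centred on the median gene, which lay at 0.15 in JUN WT against control, 7 AP-1 targets were at least 2-fold higher and 2 lower, 2 MAP kinase genes higher and 0 immediate-early genes higher. After rescaling, 8 immediate-early genes were lower in JUN AA, and 0 cofactors were higher. With JNKi against iCAFs, 10 targets were lower and 1 higher under either scaling. The deposited FPKM summed to 613184 in JUN AA and to 494603 in control, and no read number limits the precision that can be stated. No paired analysis was possible because each group had 1 library.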
